A study of Schizosaccharomyces pombe with 80 samples.

Results

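The 10 genes described here lie under 4 stretches of dimethylated histone H3 lysine 9 (H3K9me2) that were listed in fission yeast cells lacking Argonaute. They were chosen by their position: each is overlapped by a peak in the list of 1 of 12 epe1 ago1 tfs1DN isolates, so those peaks are the choice itself and are given as a description, with no test. The members are osh6, tel1 and pdr16 on chromosome III, ubx3, met11 and msc1 on chromosome I, and cbh2, pho8, erg26 and, in a separate stretch, aim21 on chromosome II. They are 10 of the 5113 protein-coding genes annotated on the 3 chromosomes. A further 5 protein-coding genes lie under the same stretches and are described beside them. Each stretch is called a domain below and named after 1 of its genes.

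H3K9me2 is the mark of heterochromatin, which silences the genes it covers. In fission yeast it is placed by the methyltransferase Clr4 and is normally concentrated at centromeres, telomeres and the mating-type region. Small RNAs bound to Argonaute, the product of ago1, are a route by which Clr4 is brought to chromatin, and the JmjC-domain protein Epe1 opposes the mark. TFIIS, the product of tfs1, helps RNA polymerase II out of a backtracked pause, and its dominant-negative form tfs1DN holds the paused polymerase in place. Seb1 binds nascent RNA and takes part in termination and in silencing at centromeres.

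The 12 epe1 ago1 tfs1DN isolates carried deletions of epe1 and ago1 and the tfs1DN construct. The 15 seb1-1 epe1 tfs1DN isolates carried the seb1-1 mutation, the epe1 deletion and tfs1DN, and the 13 epe1 tfs1DN isolates the epe1 deletion and tfs1DN. The 15 epe1 vector isolates carried the epe1 deletion and an empty construct. The labels pair epe1 tfs1DN isolates 1 and 13 with 1 parent and input, and isolates 2 to 12 with another, and these are called the first and the second cohort. Untransformed parents were 3 epe1 ago1, 1 seb1-1 epe1 and 3 epe1 strains. The labels place the ago1 isolates in 3 sets, each with 1 parent and 1 input: 3 isolates in set 1, 5 in set 2 and 4 in set 3. All of these were grown at 30 °C, and all lacked epe1. In addition, 2 pfs2-11 and 2 matched wild-type samples at 37 °C and 9 inputs without immunoprecipitation had lists. The construct sat behind the thiamine-repressible nmt1 promoter, cells were kept in thiamine because strong expression was lethal, and the native tfs1 gene remained, so tfs1DN was present at leaky levels. Whether 2 isolates of a group came from separate cultures is not stated beyond their being separate isolates.

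A list gives each peak with its read coverage and the average coverage of its chromosome, and the fold used here is the first divided by the second. The lists held medians of 35.5 peaks in ago1 tfs1DN isolates, 69 in seb1-1 isolates, 341 in epe1 tfs1DN isolates (range 75 to 669) and 63 in vector isolates. Median chromosome coverage was 19.7, 30.1, 6.53 and 3.33 reads per base in these groups. One of the 3 epe1 parent lists, that for epe1 tfs1DN isolates 1 and 13, was empty, which leaves 2 epe1 parents. In 15 of 15 seb1-1 and 15 of 15 vector lists, coverage summed over the peaks of 1 chromosome exceeded what its stated average allows for the whole chromosome (220.6% of it or more), against 0 of 12 ago1 tfs1DN and 0 of 13 epe1 tfs1DN lists. That limit was also exceeded in the seb1-1 parent, in 1 of the 2 epe1 parents with peaks and in all pfs2-11 and wild-type lists. The stated average was therefore not the same quantity in all groups, and fold values are set side by side only within a list or a group. The exceptions are the cutoff of the lists, at a fold of about 3, and the minimum fold of 4 used as an alternative. Every count of isolates with a peak rests on the first. Both were applied across groups and carry this difference.

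Of the protein-coding genes, 5 had their start within 250 bp of 1 of the 8 domain edges. These were aim21 at 2 bp, msc1 at 30 bp, SPBC18E5.09c at 122 bp, erg26 at 198 bp and ubx3 at 212 bp. The paper's methods state that reads were smoothed over a window wider than these distances, so the edges may not be exact at this scale. How often a start lies this near to any position was not computed. The bases just upstream of these starts are shown. The windows are the 100 bases before the annotated start of aim21 (chrII:2085412-2085511, plus strand), msc1 (chrI:1663316-1663415, minus strand), SPBC18E5.09c (chrII:2091344-2091443, minus strand), erg26 (chrII:4188766-4188865, minus strand) and ubx3 (chrI:1653965-1654064, plus strand). The window of cbh2 (chrII:4182439-4182538, minus strand), which lies well inside the erg26 domain, is given for comparison. The sequences are from RefSeq, build ASM294v3, found by gene name and written 5′ to 3′ along the gene. Capitals mark TATAA, the core of a TATA box, on either strand.
aim21: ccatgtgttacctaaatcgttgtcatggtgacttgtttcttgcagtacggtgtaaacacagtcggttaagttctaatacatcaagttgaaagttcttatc
msc1: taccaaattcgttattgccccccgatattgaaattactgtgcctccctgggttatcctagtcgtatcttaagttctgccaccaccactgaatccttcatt
SPBC18E5.09c: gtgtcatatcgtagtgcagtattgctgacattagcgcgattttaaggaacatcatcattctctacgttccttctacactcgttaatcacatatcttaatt
erg26: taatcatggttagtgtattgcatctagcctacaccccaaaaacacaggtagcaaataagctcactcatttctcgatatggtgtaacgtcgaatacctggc
ubx3: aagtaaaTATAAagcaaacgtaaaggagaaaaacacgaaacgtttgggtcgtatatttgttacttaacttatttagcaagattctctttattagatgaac
cbh2: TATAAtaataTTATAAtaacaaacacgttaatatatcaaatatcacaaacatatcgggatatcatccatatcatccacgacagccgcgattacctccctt
The letters TATAA were in 1 of the 5 windows nearest to a domain edge (ubx3) and in 4 of the 10 member windows (ubx3, met11, cbh2 and tel1), against 39.1% of 5112 windows of the same length over all protein-coding genes. A match or its absence describes these letters in this window only.

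The longest domain was listed in ago1 tfs1DN isolate 6, of set 1. It ran over 16.8 kb of chromosome III, bases 1263994 to 1280814 in the authors' build ASM294v2, and consisted of 4 peaks separated by 765, 51 and 264 bp. The peaks measured 3.09, 6.52, 0.18 and 5.95 kb, with folds of 4.10, 4.18, 3.06 and 3.85. The length-weighted fold was 4.03, on a chromosome coverage of 26.1 reads per base. All 4 protein-coding genes under it were transcribed from the minus strand.
tel1 encodes the ATM-type checkpoint kinase that acts at DNA breaks and telomeres, and with 8.97 kb it was the longest of the members. Peaks covered 96.5% of it, and the 0.18 kb peak and both short gaps beside it lay inside the gene. osh6, an oxysterol-binding protein of the lipid-transfer family, was covered along 100% of its 2.59 kb, and pdr16, of the Sec14 family of phospholipid carriers, along 82.3% of its 3.92 kb. The right edge lay inside pdr16, 693 bp short of its start. SPCC23B6.02c, between osh6 and tel1, was 84.6% covered. The flanking genes were free of peaks in this isolate: sti1, a co-chaperone of Hsp90, lay 419 bp to the left and ssb3, a subunit of the single-strand DNA binding complex RPA, 1072 bp to the right. The nearest other peak on the chromosome was 123.4 kb away.

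The msc1 domain was listed in ago1 tfs1DN isolate 1, of set 2, as 1 peak of 9.07 kb on chromosome I, bases 1654277 to 1663345. Its fold of 5.59 was the highest of the 4, on a chromosome coverage of 17.4 reads per base. Its right edge lay 30 bp beyond the start of msc1, which encodes a JmjC and PHD protein that works with the histone-exchange complex Swr1, and msc1 was covered along 100% of its 5 kb.
met11, methylenetetrahydrofolate reductase, which feeds methyl groups into methionine synthesis, was also 100% covered. It runs towards msc1, and the 2 genes overlap by 80 bp at their ends, the only overlap of opposite coding genes in the 4 domains. ubx3, a UBX-domain protein of the family that binds the Cdc48 segregase, was 88.0% covered, and the left edge lay 212 bp inside it. The neighbours mrp17, a mitochondrial ribosomal protein gene 421 bp to the left, and SPAC343.21, 3442 bp to the right, held no peak in this list. The nearest other peak on chromosome I was 1073 kb away.

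The erg26 domain was listed in ago1 tfs1DN isolate 3, of set 3, as 1 peak of 7.70 kb on chromosome II, bases 4181263 to 4188963. The fold was 4.42 and the chromosome coverage 18.9 reads per base. As in the tel1 domain, all 4 protein-coding genes were on the minus strand.
erg26, a sterol dehydrogenase of ergosterol synthesis, was 100% covered, and the right edge lay 198 bp beyond its start. pho8, a vacuolar alkaline phosphatase in budding yeast, and SPBC3F6.01c were also 100% covered. cbh2, a member of the CENP-B family of DNA-binding proteins that silence retrotransposons, was covered along 69.1%, the lowest share of any member, since the left edge lay inside the gene, 526 bp from its 3′ end. A separate peak of 85 bp with a fold of 3.03 stood 1.15 kb further left, inside the sorting nexin gene snx41. trr1, thioredoxin reductase, lay 836 bp to the right and held no peak.

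The shortest domain, over aim21, was listed in ago1 tfs1DN isolate 2, of set 1, as 1 peak of 5.71 kb on chromosome II, bases 2085510 to 2091221. Its fold was 4.47 on a chromosome coverage of 13.4 reads per base. Its left edge lay 2 bp before the start of aim21, which in budding yeast encodes a protein of cortical actin patches, and aim21 was 100% covered. SPBC18E5.08 and SPBC18E5.14c were 100% covered too, and SPBC18E5.09c was 84.5% covered, its start lying 122 bp outside. The neighbours rps21, a ribosomal protein gene 1187 bp to the left, and edc3, an mRNA decapping factor 1330 bp to the right, held no peak in this list. The nearest other peak was 23.1 kb away.

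**Figure D1:**
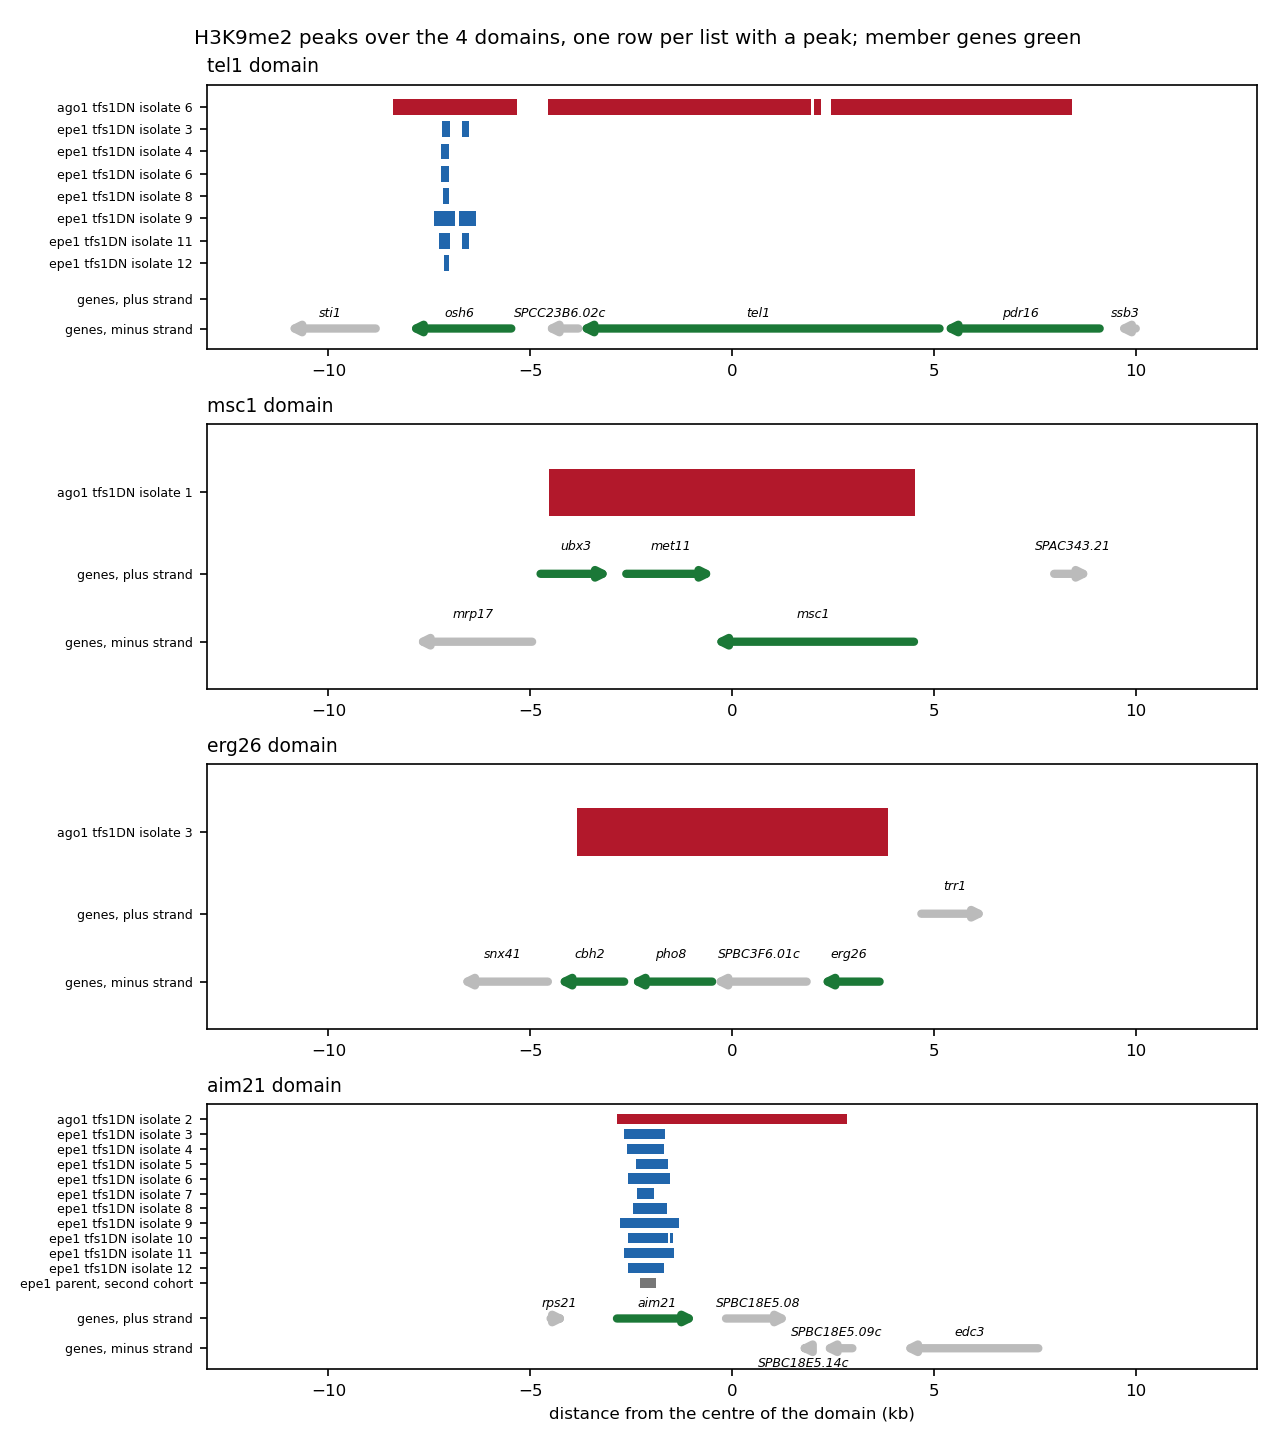
H3K9me2 peaks that overlap each domain, by distance from the domain's centre in kb, with 1 row for each list that holds such a peak (red, the ago1 tfs1DN isolate; blue, epe1 tfs1DN isolates; grey, the epe1 parent of the second cohort) and the protein-coding genes below by strand (green, members). The domains span 16.8, 9.07, 7.70 and 5.71 kb, while the peaks of other lists lie inside aim21 or osh6 and reach at most 1463 bp.

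Of the 10 members, 6 were covered from end to end (osh6, met11, msc1, pho8, erg26 and aim21) and the other 4 between 69.1% and 96.5%. Of the 8 flanking protein-coding genes, 7 had no peak in the same list, and snx41 was covered along 3.82%. The domains also spanned 29 annotated long noncoding RNA genes, of which the erg26 domain held 12. An antisense long noncoding RNA gene overlapped 9 of the 10 members, pdr16 being the exception, against 75.4% of all protein-coding genes.

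**Figure D2:**
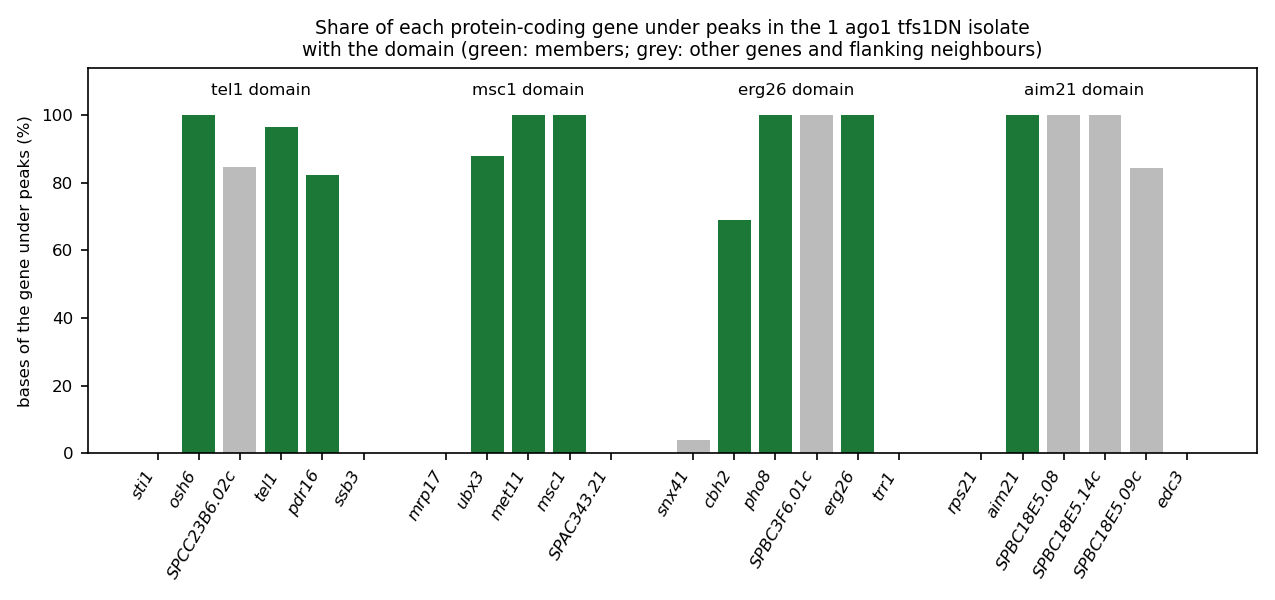
Percentage of each protein-coding gene's bases under peaks in the ago1 tfs1DN isolate that carries the domain, in chromosomal order, with members in green and other genes and flanking neighbours in grey. Covered genes reach 69.1% to 100%, and of the neighbours snx41 alone is above 0, at 3.82%.

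In their own lists the domains were neither the longest nor the highest peaks. The list of isolate 6 held 5 single peaks longer than the whole tel1 domain, and the lists of isolates 1, 3 and 2 held 11, 12 and 12 peaks longer than the msc1, erg26 and aim21 domains. The tel1 domain had a fold of 4.03 where the median peak of its list had 4.18, and the erg26 domain 4.42 where that median was 5.01. The msc1 domain had a fold of 5.59 with a list median of 4.89, and the aim21 domain 4.47 with a list median of 3.71. Against the median peak coverage of the same chromosome and list, the domains stood at 1.05, 0.736, 0.865 and 0.953. All of these medians include the domain's own peaks. For the tel1 domain the chromosome median, 100.4 reads per base, was the coverage of its own 5.95 kb peak. Its 1.05 therefore sets the domain against itself. With 1 isolate per domain, none of these values has a replicate.

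**Figure D3:**
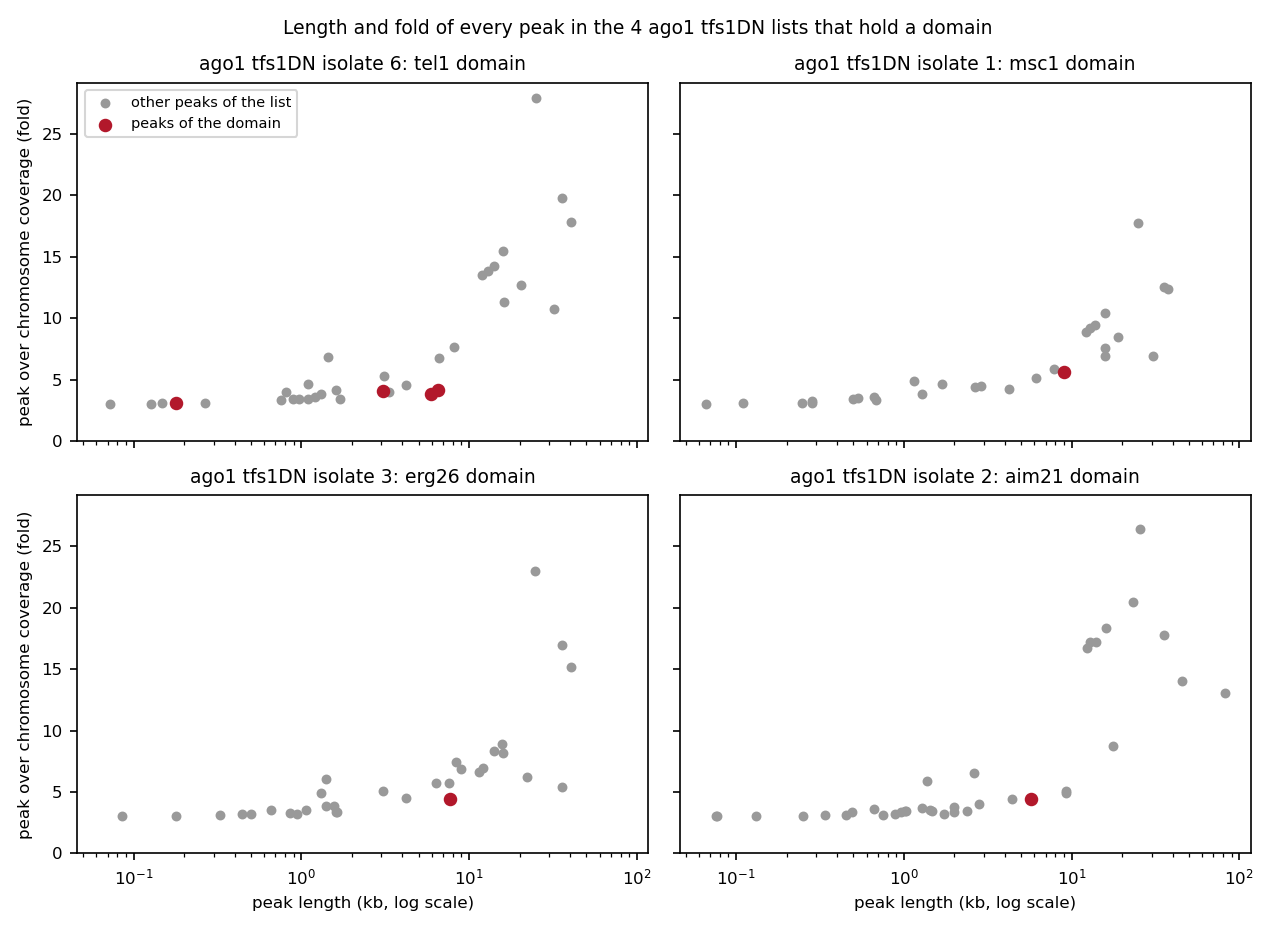
Length in kb (log axis) and fold of every peak in the 4 ago1 tfs1DN lists that hold a domain, with the peaks of the domain in red. The domain peaks run from 0.18 to 9.07 kb with folds between 3.06 and 5.59, and every list holds peaks that are both longer and higher.

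No domain was seen in a second isolate of the group. At each member, 0 of the 11 other ago1 tfs1DN isolates and 0 of the 3 epe1 ago1 parents had a peak, and 8 of the 12 isolates had none of the 4 domains. By the choice of members, 10 of 10 had a peak in at least 1 ago1 tfs1DN isolate, where 2.21% of all 5113 protein-coding genes did. All 9 inputs, 15 seb1-1 isolates, the seb1-1 parent, 15 vector isolates, 2 pfs2-11 samples and 2 wild-type samples had 0 peaks at every member. A count of 0 of 15 isolates allows a share of up to 20%, and 0 of 9 inputs 1 of up to 33.3%. These limits cover counting error only.

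In the epe1 tfs1DN isolates, which have Argonaute, peaks were listed at aim21 and osh6 and at none of the other 8 members. That is 2 of 10 members (20%) with a peak in at least 1 isolate, against 13.2% of all protein-coding genes, 0 of 10 against 3.09% in vector isolates and 0 of 10 against 2.68% in seb1-1 isolates. A count of 0 of 13 isolates at the 8 other members allows a share of up to 23.1%.

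aim21 had a peak in 10 of 13 epe1 tfs1DN isolates, 76.9% (95% exact Clopper-Pearson interval 46.2 to 94.96%). The peaks lay in isolates 3 to 12, and isolates 1, 2 and 13 had none. In these 10 isolates, peaks covered 428 bases of the gene at the lowest, 971.5 at the median and 1463 at the highest, and the largest fold per isolate was 3.19, 3.58 and 4.40. All 10 shared a stretch of 428 bp, bases 499 to 926 from the start of the gene, and none reached past base 1535 of its 2010. They therefore overlapped only the left part of the domain seen in the ago1 tfs1DN isolate, which covered the whole gene and ended 3700 bp beyond it. No epe1 tfs1DN isolate had a peak in SPBC18E5.08, SPBC18E5.14c or SPBC18E5.09c.
The epe1 parent of the second cohort, which carries no tfs1DN, also had a peak within aim21. It measured 408 bp with a fold of 3.16 and its list held 337 peaks, whereas the vector parent, with 56 peaks, had none there. Coverage summed over peaks reached 61.8% of what the chromosome average allows in 1 of these parents and 233.5% in the other. Their averages were therefore not the same quantity either. The aim21 peak was listed in 0 of 2 isolates of the first cohort (75 and 83 peaks) and in 10 of 11 of the second (118 to 669 peaks).

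osh6 had a peak in 7 of 13 epe1 tfs1DN isolates, 53.8% (exact interval 25.1 to 80.8%), namely isolates 3, 4, 6, 8, 9, 11 and 12. Peaks covered between 134 and 959 bases of the gene, with a median of 218, and the largest fold per isolate ran from 3.09 to 3.57. The 7 isolates shared a stretch of 127 bp, bases 1546 to 1672 from the start of the gene. Isolates 3, 9 and 11 had a second, separate peak in osh6. The domain of ago1 tfs1DN isolate 6 covered all 2587 bases of the gene, so the epe1 tfs1DN peaks were shorter and did not reach SPCC23B6.02c, tel1 or pdr16. The gene to the left, sti1, held short peaks in epe1 tfs1DN isolates 9, 11 and 12, covering 577, 155 and 126 bases. Neither epe1 parent with peaks had 1 in osh6, and all 7 isolates belonged to the second cohort.

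**Figure D4:**
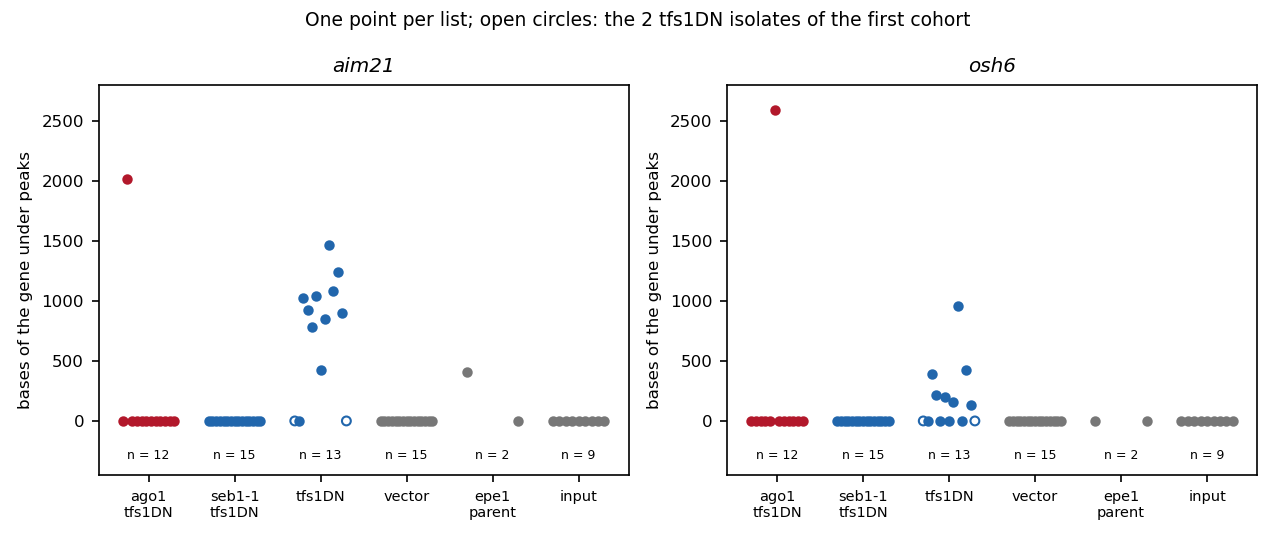
Bases of aim21 and of osh6 under peaks, 1 point per list, for ago1 tfs1DN, seb1-1 tfs1DN, epe1 tfs1DN and vector isolates, the 2 epe1 parents with peaks, and inputs (open circles, the 2 epe1 tfs1DN isolates of the first cohort). The single ago1 tfs1DN isolate reaches 2010 and 2587 bases, the epe1 tfs1DN isolates with a peak 428 to 1463 and 134 to 959, and the seb1-1 tfs1DN, vector and input lists stay at 0.

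The comparison of epe1 tfs1DN with vector isolates asked which genes were listed more often where tfs1DN was present, and it did not use the ago1 isolates. Every protein-coding gene with a peak in at least 1 of the 28 isolates was tested with a two-sided Fisher's exact test, adjusted by the Benjamini-Hochberg method over 743 genes. The call is an adjusted p under 0.05. Of these genes, 225 were listed in more epe1 tfs1DN isolates (30.3%) and 53 in fewer (7.13%). The split turned round under stricter settings. With at least 50% of a gene covered, 35 genes were listed more often and 50 less often. The counts were 22 and 57 with a minimum fold of 4, and 35 and 56 with peaks of at least 1 kb. The minimum fold rests on chromosome averages that were not the same quantity in these groups. So does the cutoff of the lists at a fold of about 3, which lies behind all of these counts. Of the 10 members, 2 entered the test, both only through peaks in epe1 tfs1DN isolates, so the filter fixed their direction. With all 5113 protein-coding genes kept, the adjusted exact p was 0.00127 for aim21 and 0.0358 for osh6. The values with the filter follow. aim21 was listed in 10 of 13 epe1 tfs1DN isolates and 0 of 15 vector isolates (adjusted exact p = 0.000184), and osh6 in 7 of 13 epe1 tfs1DN isolates and 0 of 15 vector isolates (adjusted exact p = 0.00520).
The aim21 call was lost when peaks overlapping a peak of the isolate's own parent were dropped (1 of 13 epe1 tfs1DN isolates, adjusted exact p = 0.499). The isolate left was isolate 10, through a separate 75 bp peak with a fold of 3.02 beside its dropped peak. The call was also lost with a minimum fold of 4 (1 of 13, adjusted exact p = 0.565). The osh6 call was lost with a minimum fold of 4, with a minimum length of 1 kb and when at least 50% of the gene had to be covered, where each left 0 of 13 isolates. Group and the parents and inputs it is paired with cannot be told apart here, and neither can group and the way the chromosome average was made.

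The comparison of seb1-1 epe1 tfs1DN with epe1 tfs1DN isolates asked which genes were listed less often with the seb1-1 mutation. Of 714 genes tested in the same way, 215 were listed in fewer seb1-1 isolates (30.1%) and 58 in more. Here too the split turned round, with 31 genes listed in fewer and 51 in more seb1-1 isolates when at least 50% of a gene had to be covered, 17 and 47 with a minimum fold of 4, and 27 and 55 with peaks of at least 1 kb. aim21 was listed in 0 of 15 seb1-1 isolates and 10 of 13 epe1 tfs1DN isolates (adjusted exact p = 0.000166), and osh6 in 0 of 15 seb1-1 isolates and 7 of 13 epe1 tfs1DN isolates (adjusted exact p = 0.00495). The 2 comparisons share the 13 epe1 tfs1DN isolates, and the same alternatives ended the same calls: for aim21 with the own parent's peaks dropped (adjusted exact p = 0.480) and with a fold of 4 (adjusted exact p = 0.526). Both members again entered only through epe1 tfs1DN isolates, so the filter fixed their direction. With no filter the adjusted exact p was 0.00119 for aim21 and 0.0355 for osh6. The limits on parents and inputs and on the chromosome average hold here too.

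The length under peaks at aim21 and osh6 moved with the number of peaks in the list. Both values come from the same calls at the same cutoff, so they are not independent and a positive relation is partly built in. The relation was not computed for other genes, so the values below do not show a trait particular to these genes. Over the 11 epe1 tfs1DN isolates of the second cohort, the bases of aim21 under peaks and the number of peaks in the list had a Pearson r of 0.90 (permutation p = 6.00e-05, adjusted p = 0.000240) and a Spearman rho of 0.94 (permutation p = 0.000120, adjusted p = 0.000480). Without isolates 2 and 9, the farthest from the median, r was 0.89. For osh6, r was 0.89 (permutation p = 0.00102, adjusted p = 0.00204), rho was 0.76 (permutation p = 0.0100, adjusted p = 0.0200), and r was 0.70 without isolates 2 and 9. Isolate 9, with 669 peaks, had the most bases under peaks at both genes, and isolate 2, with 118 peaks, had none at either.
Coverage differed as well: isolate 9 had the lowest chromosome coverage of the cohort, 3.63 reads per base, and isolate 2 the highest, 12.9. Chromosome coverage is the divisor of the fold by which the lists are cut, so it is not independent of the length under peaks either. Against the chromosome coverage, r was -0.81 for aim21 (permutation p = 0.00996, adjusted p = 0.0133; rho -0.72, permutation p = 0.0159, adjusted p = 0.0213) and -0.53 for osh6 (permutation p = 0.0312, adjusted p = 0.0312; rho -0.38, permutation p = 0.253, adjusted p = 0.253). Without isolates 2 and 9 these were -0.23 and -0.11, so the relation with coverage rested on those isolates. The 4 relations were adjusted together, and the part of coverage in the number of peaks was not tested.

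**Figure D5:**
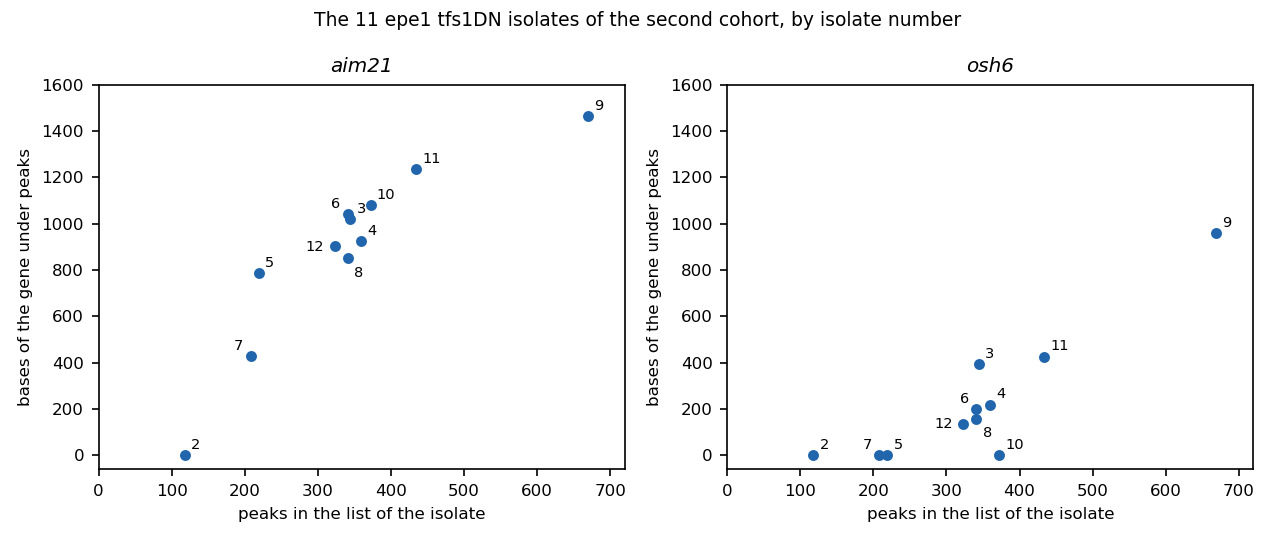
Bases of aim21 and osh6 under peaks against the number of peaks in the list, for the 11 epe1 tfs1DN isolates of the second cohort, labelled by isolate number. Isolate 9 (669 peaks) is at 1463 and 959 bases and isolate 2 (118 peaks) at 0 for both genes.

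The genes that share a role with the members were counted from lists assembled by the members' roles. Every list holds a member, so at least 1 listed gene per list in ago1 tfs1DN isolates was fixed by the choice of members. Over all 5113 protein-coding genes, 2.21% had a peak in at least 1 ago1 tfs1DN isolate. In ago1 tfs1DN isolates the domains accounted for the only listed gene of the one-carbon and methionine list (met11, 1 of 12 genes), the ergosterol list (erg26, 1 of 19), the CENP-B family (cbh2, 1 of 3), the phosphatase and phosphate list (pho8, 1 of 6), the Cdc48 list (ubx3, 1 of 7) and the Swr1, JmjC and PHD list (msc1, 1 of 12). Both listed genes of the lipid-transfer list were members (osh6 and pdr16, 2 of 7). The checkpoint list had tel1 and also rad3, the ATR-type kinase, in 4 of 12 isolates, and rad50, of the break-end complex, in 5 of 12 isolates. The actin-patch list had aim21 and act1, the actin gene, in 1 of 12 isolates each.

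In epe1 tfs1DN isolates other genes of the same roles were listed, while the other 8 members were not. Against vector isolates, the methionine list had 4 of 4 tested genes listed more often, the ergosterol list 4 of 5, the CENP-B family 0 of 1, the phosphate list 1 of 4, the lipid-transfer list 2 of 4, the Cdc48 list 2 of 2 and the actin-patch list 4 of 7. No gene of the Swr1 list entered the test. Of the checkpoint list, 0 of 3 tested genes were listed more often and 2 of 3 less often. A gene entered the test only through a peak in 1 of the isolates compared, so these counts leave out the genes of each list without a peak. In the methionine, ergosterol, CENP-B and Cdc48 lists no gene had a peak in a vector isolate. Their tested genes entered only through epe1 tfs1DN isolates, so the filter fixed their direction. The adjusted p values below are with this filter. The background is 30.3% listed more often and 7.13% less often over all 743 genes tested.
met10, a sulfite reductase subunit, was listed in 9 of 13 epe1 tfs1DN isolates and 0 of 15 vector isolates (adjusted exact p = 0.000574). erg11, the sterol demethylase, was listed in 9 of 13 epe1 tfs1DN isolates and 0 of 15 vector isolates (adjusted exact p = 0.000574). cbh1, another gene of the CENP-B family, was listed in 1 of 13 epe1 tfs1DN isolates and 0 of 15 vector isolates (adjusted exact p = 0.503). cdc48 itself was listed in 8 of 13 epe1 tfs1DN isolates and 0 of 15 vector isolates (adjusted exact p = 0.00178). met10 and erg11 each also had a peak in 1 of 3 epe1 parents, which carry no tfs1DN, while cbh1 and cdc48 had none there. Calls for these genes with the own parent's peaks dropped are not given here. Among the members in these lists, met11, erg26 and cbh2 were at 0 of 13 epe1 tfs1DN isolates. The 2 checkpoint genes listed less often were rad50 (3 of 13 epe1 tfs1DN isolates and 15 of 15 vector isolates) and chk1, an effector kinase (0 of 13 epe1 tfs1DN isolates and 8 of 15 vector isolates). The members and lists were chosen with earlier results of these data known.

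The members were also compared with all protein-coding genes in features that the choice did not use, as a description. Gene length ran from 1.52 to 8.97 kb with a median of 2.14 kb, against a median of 1.77 kb over all genes. GC content ran from 34.1 to 45.0% with a median of 38.4%, against 36.8% over all genes, whose middle 50% lay between 35.2 and 38.5%. aim21 had the highest GC content of the members and tel1 the lowest. TGTA, the DNA form of the UGUA letters found in RNA sites bound by Seb1-type proteins, occurred on the sense strand at 1.49 (aim21) to 6.23 (ubx3) per kb with a median of 3.31, against 3.81 per kb over all genes. Of the 10 members, 7 were on the minus strand. The domains lay 350.8 kb or more from the nearest chromosome end.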

How the data were processed

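Peak lists of 75 samples were analysed, 9 of them inputs without immunoprecipitation and the rest H3K9me2 chromatin immunoprecipitation libraries. Of the 75 lists, 74 held 7203 peaks, those of the inputs included. A further 5 samples, which profiled polymerase occupancy, were not used here. As the methods and labels state, adaptors were removed, reads were aligned to build ASM294v2 with Bowtie and smoothed, and the processing notes also name SAMtools and bedtools. The deposited signal is read coverage, averaged by the authors across each peak and across its chromosome, 1 library per list, with no correction for input. The smallest fold was 3.00. Depth is known only as this coverage.

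Peaks were placed on the RefSeq annotation (ASM294v3, 12606 genes) after chromosome ends were compared. Beyond the last peak lay 161 bp of chromosome I, 27 bp of II and 14606 bp of III. That comparison cannot show whether ASM294v2 and ASM294v3 agree over the domains. Overlaps with genes and distances in bp assume that they do, which was not checked. A gene had a peak with an overlap of at least 1 bp, and peaks less than 1 kb apart in a domain were merged. Fisher's exact test (SciPy 1.17.1) was run over the protein-coding genes with a peak in at least 1 isolate compared, and was tested on simulated data. Correlations used 100000 permutations. The named genes were the members, all other genes overlapping the domains, the flanking protein-coding genes and role lists. The members and lists were chosen with earlier results of these data known. Of the list names, met5, erg13, erg20, rad32, sfh5 and shp1 matched no annotated symbol, and the CENP-B family gene once called abp1 is cbp1 in the annotation. The parent and input of the second cohort are titled for isolates 2 to 11, and isolate 12 was placed there because its own description names that input and a parent of isolates 2 to 12, taken to be the same sample. Alternatives changed the overlap, fold, length, gene limits, filter, isolates compared, and the use of parents and inputs. Isolates 1 and 13 had an empty parent list, so no parent peaks were dropped for them.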

Additional observations from a re-analysis of the deposited data

How the results depend on the processing

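The count of 278 genes called between epe1 tfs1DN and vector isolates became 85 when at least 50% of a gene had to be covered, 79 with a fold of at least 4, 91 with peaks of at least 1 kb, 62 without peaks overlapping the own parent's, and 553 over all annotated genes. The count of 273 between seb1-1 and epe1 tfs1DN isolates became 82, 64, 82, 72 and 561 under the same 5 alternatives, which test fewer or more genes by construction. Leaving out each isolate in turn, chosen after seeing the data, gave 252 to 283 and 247 to 276 genes, and neither aim21 nor osh6 lost its call.

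Over the 12 other alternatives, the adjusted exact p for aim21 ran from 1.81e-05 to 0.565 against vector isolates and from 1.68e-05 to 0.526 with seb1-1, and for osh6, where it still had a peak, from 0.00181 to 0.0528 and from 0.00174 to 0.0521. Apart from the replicate block, the remaining alternatives left both counts within 1.5 times. Counts by direction are given beside the comparisons for the 3 alternatives that turned the split round.

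Isolate numbers name isolates and pair nothing: same-number deviations correlated at a median of 0.00275 and -0.0359 over 13 pairs, and no isolate correlated best with its own number. With the number as a replicate block, an exact McNemar test called 179 and 178 genes. aim21 kept its call, and osh6 had an adjusted exact p of 0.0528 and 0.0521.

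Without merging, the longest peak of the tel1 domain measured 6.52 kb with a fold of 4.18, and the plain mean of its 4 folds was 3.80. Merging up to 3 kb made the erg26 domain 8.94 kb with a fold of 4.41. Against the median peak coverage, which includes the domain's own peaks, tel1, msc1, erg26 and aim21 stood at 1.05, 0.736, 0.865 and 0.953. The lists give no values below a fold of about 3, so a gene without a peak may carry the mark below that level, and no library's total reads are known.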
